A study of Mus musculus with 3 samples.

Results

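The set examined here holds 44 genes of the cell cycle and of DNA replication, out of 18121 protein-coding genes and 27480 genes of all kinds with a row in the table. They were chosen by symbol, with no limit on their values, and comprise 31 genes that serve dividing cells, 8 genes that control the G1 phase, and 5 genes with roles in postmitotic neurons. All 44 were found. The libraries came from dissociated cortical neurons of E16 embryos (embryonic day 16) of Swiss-Webster mice, an outbred stock, labelled wild type and untreated, and kept in neurobasal medium with B27, a serum-free medium for neurons. There were 3 poly-A RNA libraries of 1 group, called libraries 1, 2 and 3, and no second group is compared with them here. The TOP2 poison etoposide is described in the growth protocol, but the treatment label of the libraries reads none. Whether they came from separate cultures or litters is not labelled, so an SD or a p-value measures the spread from library to library and may be technical.

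A cell that divides must first license its replication origins, then copy its DNA once, and then part the copies on a spindle. Licensing loads the MCM helicase on DNA, cyclin-dependent kinases (CDKs) bound to cyclins drive each step, and E2F factors, held back by the retinoblastoma protein, switch on the genes for it. Cortical neurons leave this cycle when they are born, in part through CDK inhibitors, and normally do not enter it again. CDK5 is unusual among the CDKs, since it is activated not by a cyclin but by p35 or p39 and acts in neurons on migration, axons and synapses.

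Values are TPM, the share of a library's reads scaled for transcript length, of the longest protein-coding transcript of each gene. Genes with a mean of 1 TPM or more over the libraries are called detected, and 61.5% of all protein-coding genes passed this limit. A level of 1 TPM on 2 kb of transcript rested on 103, 86.5 and 91.4 reads in libraries 1, 2 and 3. Pan-neuronal markers were at 10 TPM or more in 8 of 8 cases, beside 26.4% of all protein-coding genes. Astrocyte markers were detected in 8 of 8 cases and oligodendrocyte precursor markers in 5 of 6. Radial glia and progenitor markers were detected in 6 of 8 cases, and these lists overlap in biology, since radial glia and astrocytes share genes. Microglial, endothelial and mural, and meningeal markers were detected in 2 of 6, 1 of 6 and 1 of 5 cases, and Tmem119 of microglia and Cldn5 of endothelium were listed at 0. The microglial count was 1 of 6 without library 2 or without library 3, and the endothelial and mural count was 0 of 6 without library 3. In RNA from mixed cultures, fewer cells of a type and less RNA per cell cannot be told apart.

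The dividing-cell genes were present at low levels. Their median was 1.30 ± 0.08 on the log2(mean TPM + 1) scale (SD of the 3 library medians), which corresponds to 1.46 TPM, against 1.94 and 2.84 TPM over all protein-coding genes. Of the 31 genes 21 were detected (67.7%), which is close to the 61.5% of all protein-coding genes that passed the same limit. With the longest coding row none reached 10 TPM, a level passed by 26.4% of protein-coding genes. With other choices some did, such as Pcna at 11.1 TPM with the highest row and 38.0 TPM with the sum of rows. The share of all protein-coding genes at 10 TPM was worked out only for the longest coding row. The G1 control genes had a median of 2.31 ± 0.10, with 6 of 8 detected and 3 at 10 TPM or more. Among the members with at least 90% of their 50-base words in no other annotated gene, the median was 1.41 for 5 G1 control genes, beside 1.34 for 23 dividing-cell genes, so the gap between these classes was smaller there. The genes with roles in postmitotic neurons had a median of 4.99 ± 0.14, and all 5 stood above 10 TPM. The classes were chosen with earlier results of these data known, and Rb1 and Cdkn1b, placed in this class, also act on the cell cycle. The gap between the classes thus depends in part on how genes were sorted. No member was at 0 in any library, and 42 of 44 had at least 100 reads over the libraries.

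**Figure D1:**
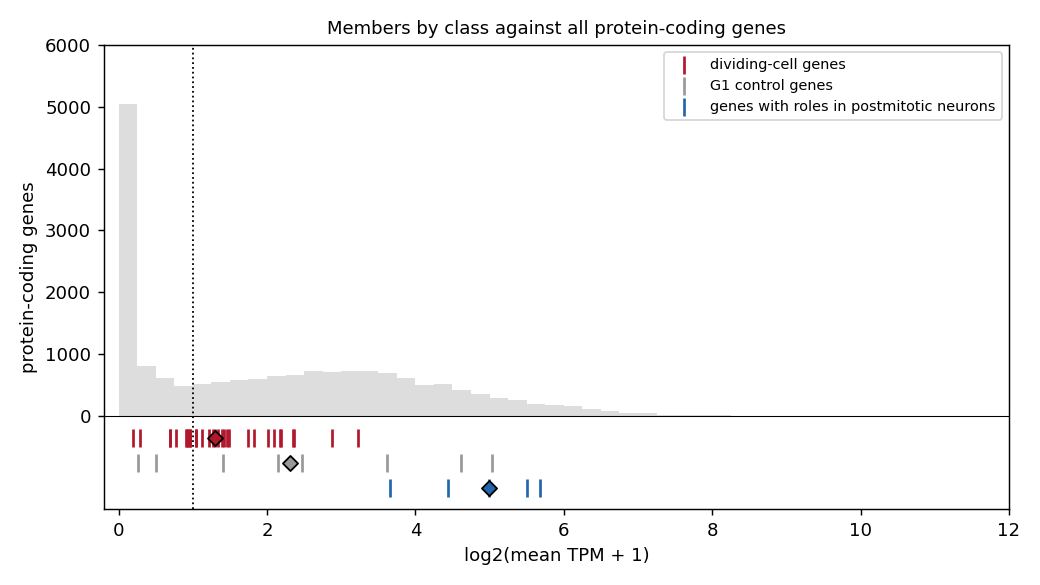
Number of protein-coding genes (vertical axis) by log2(mean TPM + 1) of the longest coding transcript (horizontal axis, bins of 0.25), with the 44 members as ticks below and the median of each class as a diamond; the dotted line marks the detection limit of 1 TPM. The dividing-cell genes lie around their median of 1.30, the G1 control genes are spread widely around 2.31, and the 5 genes with roles in postmitotic neurons lie around 4.99.

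The genes that license origins had means of at most 3.58 TPM, and the helicase subunits stood above the factors that load them. The MCM subunits form the ring-shaped helicase that unwinds DNA at the fork. Mcm7 was the highest, at 3.83, 3.15 and 3.75 TPM in libraries 1, 2 and 3, and Mcm3 the lowest, at 1.66, 1.36 and 1.58 TPM. All 6 subunits were detected, beside 61.5% of all protein-coding genes, with a family median of 2.44 TPM. Mcm6 had 2.77, 1.88 and 2.99 TPM, with library 2 well below the others, and Mcm4 had 3.23, 2.89 and 3.74 TPM. Mcm2 and Mcm5 averaged 2.34 ± 0.324 and 1.63 ± 0.193 TPM (SD, n = 3 each). The loading factors were lower than every MCM gene. Cdt1, which brings the helicase to origins, had 0.749, 0.602 and 0.800 TPM, and Cdc6, its partner in loading, had 0.216, 0.180 and 0.280 TPM. Orc1, the subunit of the origin recognition complex that varies with the cell cycle, was the lowest of all members at 0.175, 0.123 and 0.123 TPM, from 27, 16 and 17 reads. Gmnn encodes geminin, the inhibitor of CDT1, and had 1.58, 1.33 and 1.34 TPM. It exceeded Cdt1 in 3 of 3 libraries, by 0.49 ± 0.10 on the log2(TPM + 1) scale.

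Among the genes that copy DNA and supply its building blocks, 4 of 5 were detected, beside 61.5% of all protein-coding genes. Pcna, the sliding clamp of the replication fork that is also used in DNA repair, was the highest dividing-cell gene at 9.51, 7.12 and 8.45 TPM. Of its 50-base words 31.8% also occur in the annotated pseudogene Pcna-ps2, so its level is uncertain. Rrm1 and Rrm2 encode the large and small subunits of ribonucleotide reductase, which makes deoxynucleotides. Rrm1 had 6.35, 6.12 and 6.59 TPM and Rrm2 had 4.76, 3.50 and 4.07 TPM, and Rrm1 minus Rrm2 was 0.53 ± 0.16 (log2 of TPM + 1), above 0 in each library, although this sign turned with the highest row or the sum of rows. Rrm1 was also the steadiest dividing-cell gene, with a coefficient of variation (CV) of 3.76%, near the 2.91% that counting alone gives. Top2a, the type II topoisomerase that untangles sister chromatids, had 4.45, 3.54 and 4.41 TPM from 1191, 798 and 1051 reads. Tyms, which makes thymidylate, was not detected, at 0.621 ± 0.0341 TPM (SD, n = 3).

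The cyclins and kinases of S phase, G2 and mitosis were led by Ccna2 and Ccne1. Cyclin A2 is needed in S phase and at the entry to mitosis, and Ccna2 had 3.44, 3.23 and 3.92 TPM. Ccne1 encodes cyclin E1, which drives entry into S phase with CDK2, and which in mouse neurons is also known to bind CDK5. It had 3.05, 3.26 and 2.82 TPM and was the only dividing-cell gene with its highest value in library 2. Its paralog Ccne2 had 1.41, 1.30 and 1.65 TPM and was lower in 3 of 3 libraries, by a log2(TPM + 1) difference of 0.72 ± 0.18 for Ccne1 minus Ccne2. The mitotic cyclins were below the detection limit. Ccnb1 averaged 0.612 ± 0.166 TPM and Ccnb2 0.954 ± 0.167 TPM (SD, n = 3 each), and Ccnb1 is uncertain because 42.1% of its 50-base words occur in other annotated genes, mainly its pseudogenes. Cdk1, the mitotic kinase, had 2.001, 1.39 and 1.68 TPM, and Cdk2, the S phase kinase, had 0.939, 0.827 and 0.945 TPM. Cdc25b, a phosphatase that activates CDKs at the entry to mitosis, averaged 1.77 ± 0.262 TPM (SD, n = 3).

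The genes of mitosis and its checkpoint formed the lowest of the 4 roles, with a median of 1.05 TPM. Of these 8 genes 5 were detected (62.5%), near the 61.5% of all protein-coding genes. Mki67, the gene of the proliferation antigen Ki-67, led them at 1.72, 1.46 and 2.22 TPM from 887, 636 and 1020 reads. Cdc20, which activates the anaphase-promoting complex (APC/C) in mitosis, followed at 1.52, 1.10 and 1.38 TPM. Birc5, or survivin, and Aurkb belong to the chromosomal passenger complex and averaged 1.17 ± 0.141 and 0.953 ± 0.15 TPM (SD, n = 3 each). Aurka and Plk1, kinases of the spindle poles and of mitotic entry, averaged 1.05 ± 0.16 and 1.05 ± 0.313 TPM (SD, n = 3 each). Plk1 varied most among the dividing-cell genes, with 1.06, 0.735 and 1.36 TPM and a CV of 29.8% against 9.60% from counting. Bub1 and Bub1b, of the spindle checkpoint, stood just below the limit at 0.911 ± 0.188 and 0.870 ± 0.108 TPM (SD, n = 3 each). Aurka minus Aurkb was 0.07 ± 0.13 on the log2(TPM + 1) scale and above 0 in 2 of 3 libraries, so neither aurora kinase can be called the higher.

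The G1 control genes ran from 0.203 to 31.6 TPM in mean, with Ccnd2, Cdk4 and Ccnd1 at the top. Ccnd2, the cyclin D that cortical progenitors and some newborn neurons are known to express, had 32.0, 35.7 and 27.2 TPM. Ccnd1 followed at 10.8, 10.7 and 12.1 TPM and Ccnd3 at 4.89, 4.06 and 4.72 TPM, so the ranges of the 3 cyclins did not overlap. Ccnd2 minus Ccnd1 was 1.41 ± 0.28 and Ccnd2 minus Ccnd3 was 2.55 ± 0.28 on the log2(TPM + 1) scale, each above 0 in 3 of 3 libraries, but with summed transcript rows Ccnd3, which has 21 rows, exceeded Ccnd2. Cdk4 and Cdk6 encode the kinases that D-type cyclins activate. Cdk4 had 25.4, 19.4 and 25.6 TPM and Cdk6 had 0.198, 0.248 and 0.164 TPM, a ratio of means of 115. The deposited Cdk6 row counts 3735 bases of a transcript that GENCODE M21 gives as 11525 bases, so reads from the remaining bases are not in it. The Cdk4 row shares 31.2% of its bases with Tspan31 on the other strand, and while the library kit keeps the strand, the strand setting of the counting is not known.

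E2f1, an activator of S phase genes, had 3.80, 3.74 and 2.79 TPM, with library 3 below the others. The INK4 inhibitors block CDK4 and CDK6. Of these Cdkn2c averaged 1.65 ± 0.142 TPM (SD, n = 3). Cdkn2a, whose locus encodes an INK4 inhibitor and also ARF, stood below the limit at 0.436, 0.414 and 0.416 TPM, from 20, 16 and 17 reads. Whether the Cdkn2a row read encodes the INK4 inhibitor or ARF was not worked out. The 2 rows of Cdkn2a summed to 0.685 TPM. Cdkn2c and Cdkn2a were far below Cdkn1b, the gene of the inhibitor p27, known to help keep newborn neurons out of the cycle.

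The genes with roles in postmitotic neurons were led by the activators of CDK5. Cdk5r2, which encodes p39, had 47.0, 52.9 and 51.5 TPM, and Cdk5r1, which encodes p35, had 44.1, 49.5 and 39.8 TPM. Cdk5r1 minus Cdk5r2 was -0.18 ± 0.16 on the log2(TPM + 1) scale and below 0 in 3 of 3 libraries, but with summed rows it was above 0. Cdk5 itself (chr5:24418250-24423530, minus strand, mm10) had 34.4, 28.9 and 29.3 TPM, from 3619, 2559 and 2743 reads, and stood above 91.4% of protein-coding genes. Cdkn1b was steady, at 19.5, 20.97 and 21.4 TPM. Rb1, the gene of the retinoblastoma protein that restrains E2F, had 10.2, 12.8 and 11.9 TPM.

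**Figure D2:**
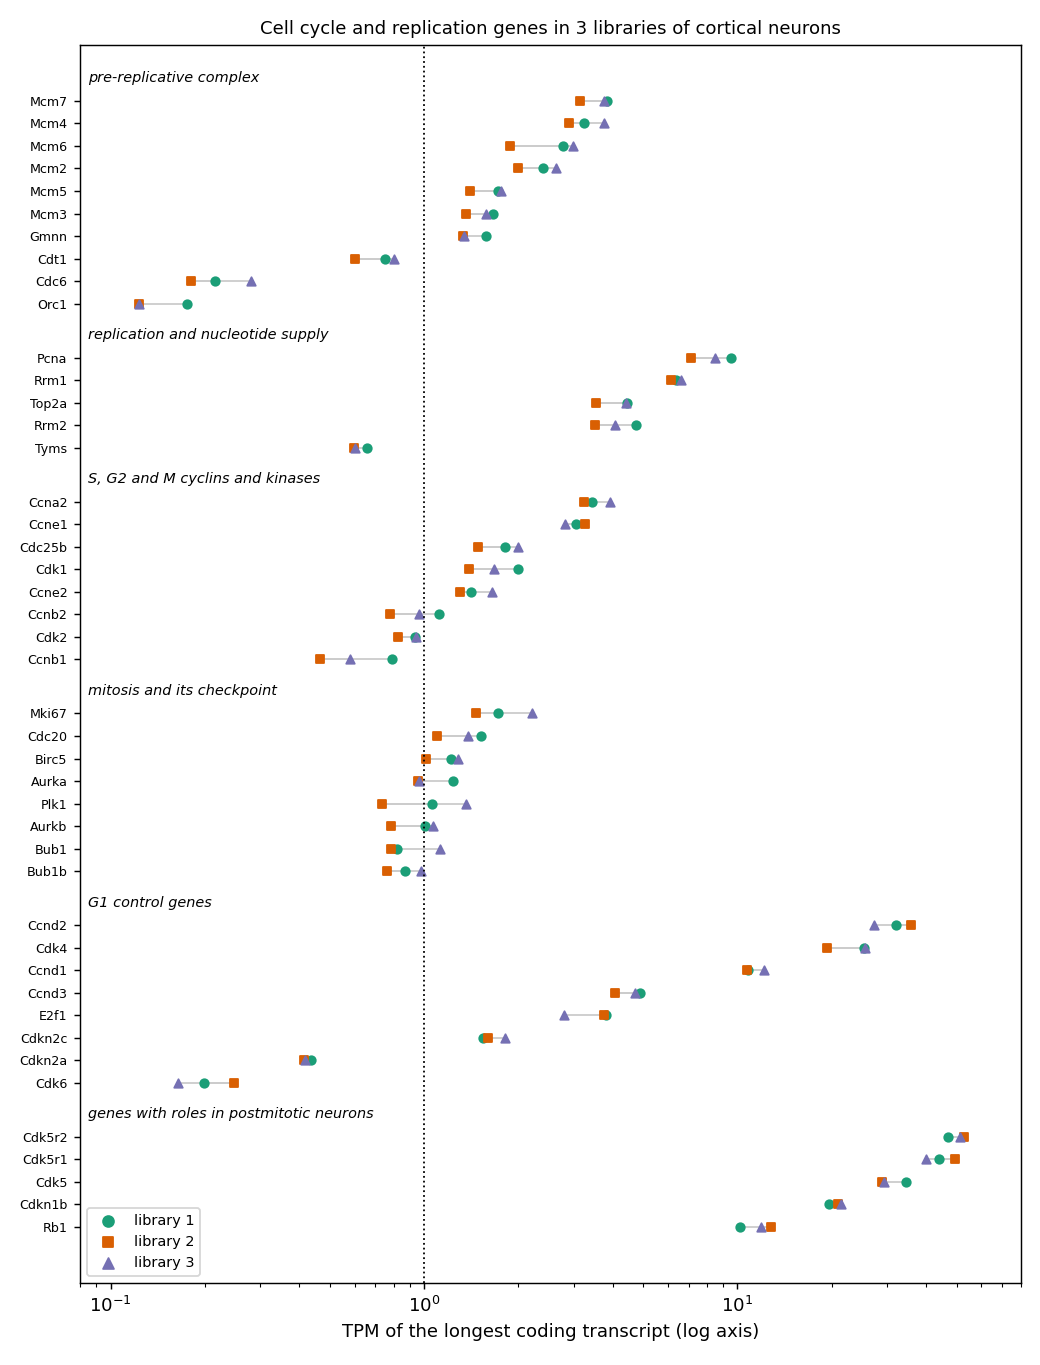
TPM of the longest coding transcript (horizontal log axis) of each of the 44 members, with 1 marker per library and members sorted by mean within their role; the dotted line marks 1 TPM. The dividing-cell genes lie between 0.140 (Orc1) and 8.36 TPM (Pcna) in mean, and the 5 genes with roles in postmitotic neurons between 11.6 (Rb1) and 50.5 TPM (Cdk5r2).

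The CDK genes differed from each other in level. Cdk5 minus Cdk1 was 3.57 ± 0.07 and Cdk5 minus Cdk2 was 4.06 ± 0.12 on the log2(TPM + 1) scale, with mean TPM ratios of 18.3 and 34.2. The gap to Cdk1 shrank to 2.51 with the highest row and to 0.37 with the sum of rows, and the Cdk1 row counts 2886 bases of a transcript that GENCODE M21 gives as 4375 bases. Cdk5 minus Cdk4 was only 0.39 ± 0.18, with a mean TPM ratio of 1.32, and its sign turned when the highest transcript row (-0.69) or the sum of rows (-3.34) was taken, so the order of Cdk5 and Cdk4 depended on the row read. Rb1 minus E2f1 was 1.51 ± 0.27, Cdkn1b minus Cdkn2c was 3.03 ± 0.04, Cdk4 minus Cdk6 was 4.33 ± 0.27 (7.83 with the sum of rows) and Ccnb1 minus Ccnb2 was -0.28 ± 0.04, but the last of these was 1.12 with the sum of rows. Over the 14 pairs compared, 13 had the same sign in 3 of 3 libraries, each with p = 0.25 in an exact permutation test that flips signs, two-sided (Benjamini-Hochberg adjusted p = 0.269), and 3 libraries cannot give a smaller p. The exact test gave p = 0.5 (adjusted p = 0.5) for Aurka minus Aurkb.

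Other genes of the same pathways were read from lists, beside the 61.5% of all protein-coding genes that were detected. Of 20 other replication fork genes 13 were detected, with a median of 1.31 on the log2(mean TPM + 1) scale, led by Gins4 at 11.5, Dut at 8.55 and Rfc3 at 4.26 TPM, and with Mcm10 lowest at 0.501 TPM. Of 20 spindle and kinetochore genes 14 were detected, with a median of 1.30, led by Mad2l1 at 7.06, Incenp at 3.27 and Ckap2 at 2.78 TPM, and with Ttk lowest at 0.778 TPM. These medians lie beside the 1.30 of the dividing-cell genes, and the shares detected (65% and 70%) lie near that of all protein-coding genes. Of 15 E2F, MYB and pocket protein genes 10 were detected (66.7%), again near that share. They were led by the E2F partner gene Tfdp1 at 14.3, the repressor E2f4 at 6.09 and the pocket protein gene Rbl2 at 5.88 TPM. The lowest was the activator E2f2 at 0.155 TPM. Of the 4 other CDK inhibitors, Cdkn2d, which encodes the INK4 protein known to keep neurons postmitotic in mice together with p27, stood at 23.4 TPM. Cdkn1a, a p53 target, stood at 14.6 TPM, Cdkn2b at 1.33 TPM and Cdkn1c at 0.197 TPM.

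All 12 APC/C genes were detected, beside 61.5% of all protein-coding genes, with a median of 3.74 on the log2(mean TPM + 1) scale. The complex marks cyclins for destruction and works in neurons with the activator CDH1. Anapc5 at 64.9, Cdc16 at 26.0 and Anapc4 at 18.3 TPM led, and Anapc10 was lowest at 4.88 TPM. Fzr1, which encodes CDH1 and was picked after its value was seen, stood at 11.2 ± 1.04 TPM against 1.33 ± 0.217 TPM for the mitotic activator gene Cdc20 (SD, n = 3 each). All 14 substrates and partners of CDK5 were detected, with a median of 5.26, led by Crmp1 of growth cones at 149.7, the postsynaptic scaffold Dlg4 at 146 and tau (Mapt) at 123 TPM. Cdk5rap2, which acts at centrosomes, was lowest at 1.54 TPM. Of 8 other neuronal CDKs and cyclins 7 were detected, with Cdk16, Cdk17 and Cdk14 at 68.3, 36.2 and 32.7 TPM and Cdk18 lowest at 0.644 TPM.

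The libraries did not carry equal amounts of the dividing-cell genes. Of the 31 genes 30 had their lowest value in library 2 (96.8%), against 25.6% of 11150 detected protein-coding genes and 29.5% of 3818 protein-coding genes of 1 to 5 TPM. This was seen in 10 of 10 licensing genes, 5 of 5 replication and nucleotide genes, 7 of 8 cyclins and kinases and 8 of 8 genes of mitosis, and the exception was Ccne1. The median ratio of library 2 to the mean of libraries 1 and 3 was 0.806 for the dividing-cell genes, with a range of 0.606 (Plk1) to 1.11 (Ccne1), beside 1.02 for detected protein-coding genes. The ratio and the choice of library 2 were made after the values were seen, and the members share their libraries, so no test is given. Of the other replication fork genes 15 of 20, of the spindle and kinetochore genes 16 of 20 and of the APC/C genes 7 of 12 were lowest there. The same held for 7 of 15 E2F, MYB and pocket protein genes, 0 of 4 other CDK inhibitors, 2 of 14 CDK5 substrates and partners and 1 of 8 other neuronal CDKs and cyclins. Library 2 has the fewest reads per TPM, and it was the highest library for 40.3% of detected protein-coding genes.

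Single genes differed less clearly when judged by counting intervals. The CV was above that from counting alone in 27 of 31 dividing-cell genes, a share not worked out for all protein-coding genes. Exact Poisson intervals of 95%, which cover counting error only, set library 2 below both other libraries, without overlap, in 3 of 31 dividing-cell genes. How many of all protein-coding genes are set apart in this way was not worked out either, so this count has no background. Top2a had 3.54 TPM (3.29 to 3.79) in library 2, against 4.45 (4.20 to 4.71) in library 1 and 4.41 (4.14 to 4.68) in library 3. Mki67 had 1.46 TPM (1.35 to 1.58) in library 2, against 1.72 (1.61 to 1.83) and 2.22 (2.08 to 2.36). Mcm6 had 1.88 TPM (1.69 to 2.09) in library 2, against 2.77 (2.55 to 2.996) and 2.99 (2.76 to 3.24). Among the G1 control genes the same was seen in Cdk4, with 19.4 TPM (18.5 to 20.3) in library 2, against 25.4 (24.5 to 26.4) and 25.6 (24.5 to 26.6).

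**Figure D3:**
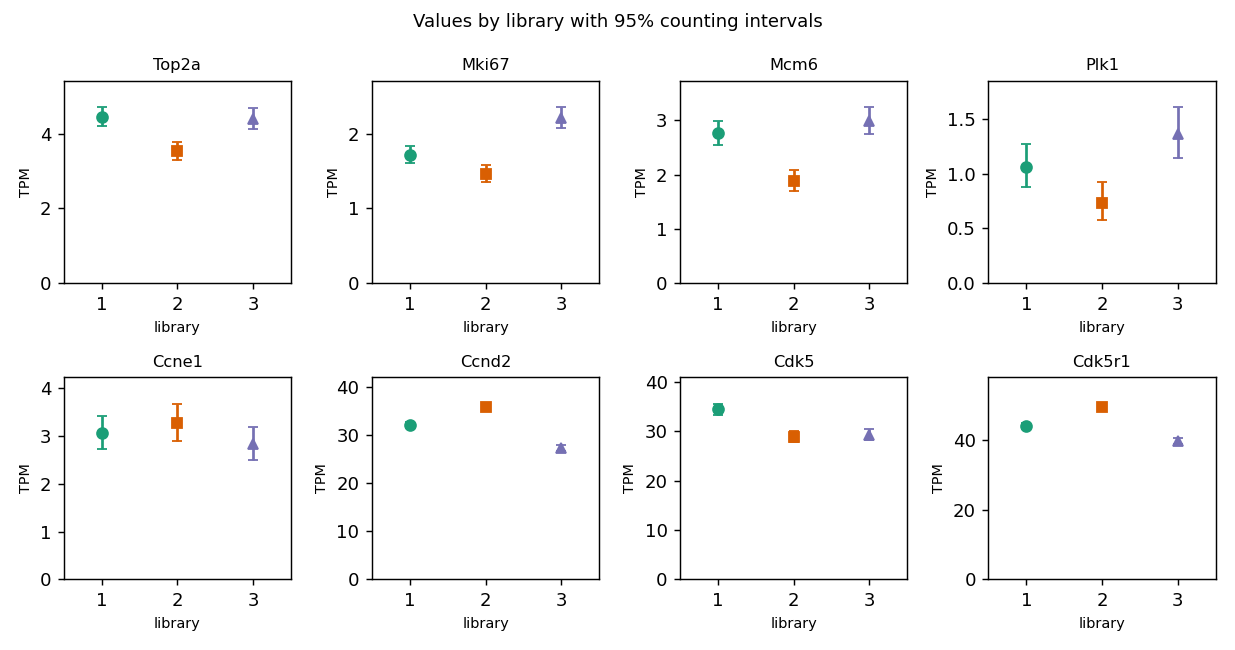
TPM by library (vertical axes start at 0) of 8 members, with points for the deposited value and bars for the exact 95% Poisson interval of its reads. Library 2 is lowest for Top2a, Mki67, Mcm6, Plk1 and Cdk5, and highest for Ccne1, Ccnd2 and Cdk5r1.

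The other members did not share this order. Of the G1 control genes 4 of 8 were lowest in library 2, with a median ratio of 0.961, and they split by gene. Cdk4 and Ccnd3 were low there, with ratios of 0.760 and 0.845, while Ccnd2 and Cdk6 were high, with 1.21 and 1.37. Of the genes with roles in postmitotic neurons 1 of 5, Cdk5, was lowest in library 2, and the median ratio was 1.07. Cdk5r1 was 1.18 times and Rb1 1.16 times as high in library 2 as in the mean of the others.

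Markers of other cells were read in the same way, beside the 25.6% of detected protein-coding genes that were lowest in library 2. All 6 oligodendrocyte precursor markers were lowest in library 2, with a median ratio of 0.427 and summed levels of 66.3, 48.3 and 83.6 TPM in libraries 1, 2 and 3. Pdgfra, the receptor that defines these dividing precursors, had 11.5, 4.94 and 18.4 TPM. Olig2, a transcription factor of the lineage, had 15.1, 10.1 and 22.7 TPM, and Sox10 had 2.18, 0.853 and 2.62 TPM. These 3 markers were picked after their values were seen. Astrocyte markers were lowest in library 2 in 2 of 8 cases (25%, near that share), with sums of 425, 452 and 517 TPM. Radial glia and progenitor markers were lowest there in 2 of 8 cases (25%), with sums of 389, 340.5 and 302 TPM. Fabp7 alone held 324, 259 and 227 TPM of these, and the other 7 markers summed to 65.4, 81.6 and 74.7 TPM, highest in library 2. Interneuron markers were lowest there in 1 of 6 cases, with sums of 252, 261 and 174 TPM. Pan-neuronal markers were lowest there in 1 of 8 cases, with sums of 2178, 2268 and 1981 TPM. Microglial markers were lowest there in 0 of 6 cases, endothelial and mural markers in 1 of 6 and meningeal markers in 3 of 5. The part of any of these cells in the level of the dividing-cell genes was not tested.

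**Figure D4:**
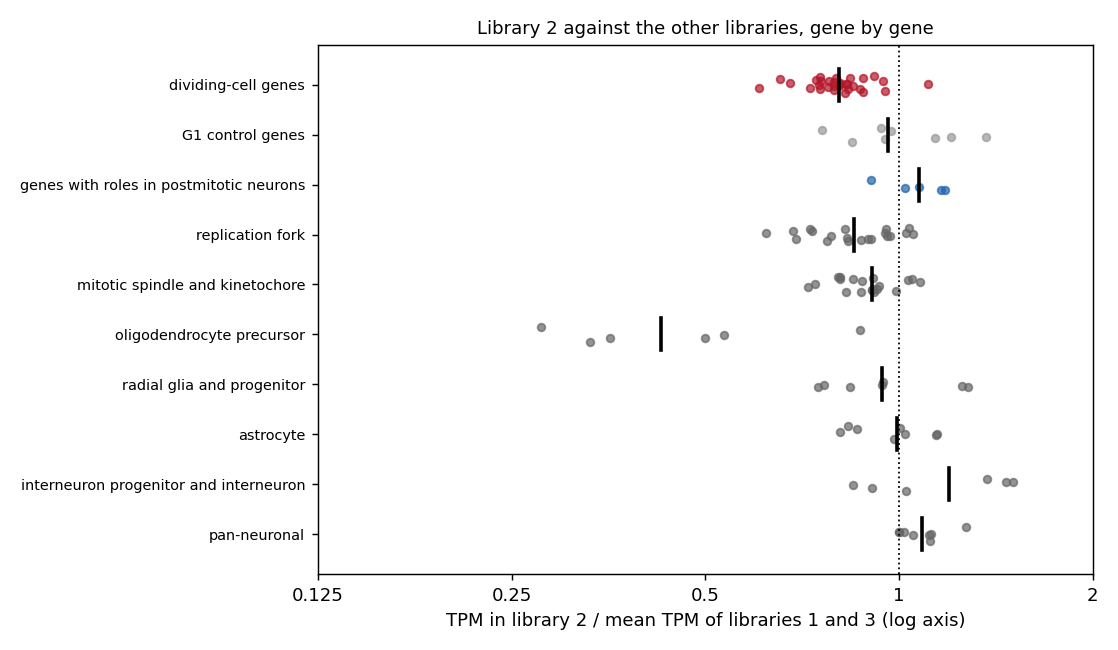
Ratio of TPM in library 2 to the mean of libraries 1 and 3 (horizontal log axis) for each gene of a class or list with a value above 0 in every library; black bars mark medians and the dotted line equality. The dividing-cell genes (median 0.806), the other replication and spindle genes (0.852 and 0.908) and the oligodendrocyte precursor markers (0.427) lie to the left, and the genes with roles in postmitotic neurons (1.07) and the pan-neuronal markers (1.08) lie to the right.

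Since 30 dividing-cell genes were lowest in the same library, promoters were read for the words known to time such genes. E2F factors bind words such as TTTCCCGC, TTTGGCGC, TTTCGCGC and TTTGCCGC, the cell cycle homology region (CHR) of genes that peak in G2 and mitosis reads TTTGAA, and the NF-Y factor binds CCAAT, often beside a CHR. RefSeq promoters (GRCm38.p6, 250 bases before to 50 bases after the start) were found for 34 of 44 members, 29 of them within 100 bases of the start of the deposited row. The start sites of Mcm7, Cdkn2c, Cdc6, E2f1 and Pcna were further off, by 539, 433, 350, 294 and 134 bases. Both strands were searched, and matches may overlap. For members the promoter nearest the start of the row was taken, but for all protein-coding genes the first one listed. The shares set side by side thus rest on different choices. An E2F word lay in 7 of 8 promoters of licensing genes (87.5%), 0 of 5 of replication and nucleotide genes, 2 of 6 of cyclins and kinases and 0 of 7 of genes of mitosis, against 3.41% of 13913 protein-coding promoters. A CHR word lay in 5 of 7 promoters of genes of mitosis (71.4%), 2 of 6 of cyclins and kinases, 1 of 5 of replication and nucleotide genes and 1 of 8 of licensing genes, against 13.2% of all. Both a CHR and a CCAAT lay in 5 of 7 promoters of genes of mitosis (71.4%), against 5.41% of all. At least 2 CCAAT words lay in 14 of 26 promoters of dividing-cell genes, against 13.5% of all. The same held for 2 of 2 promoters of genes with roles in postmitotic neurons, those of Cdk5r2 and Cdkn1b. None of the 6 promoters of G1 control genes held a CHR or a CCAAT, against 13.2% and 38.1% of all, and 1 of 6, that of Cdkn2a, held an E2F word. However, 6 promoters are few, and those of Cdkn2c and E2f1 may not be the promoters of the rows read, given their distance. All these counts are matches of letters, with no measure of binding, and a window without a word says only that these letters are not in it.

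The promoters of 5 members show these words, with every match in capitals (ATTGG is CCAAT on the other strand): Mcm6 with E2F and CCAAT words, Cdk1 with all 3 kinds, Cdc20 with CHR and CCAAT, Ccne1 with none, and Cdk5r2 with CCAAT alone. They lie at chr1:128359656-128359955 (minus strand), chr10:69352863-69353162 (minus strand), chr4:118437294-118437593 (minus strand), chr7:38107441-38107740 (minus strand) and chr1:74854779-74855078 (plus strand), all in GRCm38.p6, and are written 5′ to 3′ along the gene.
Mcm6: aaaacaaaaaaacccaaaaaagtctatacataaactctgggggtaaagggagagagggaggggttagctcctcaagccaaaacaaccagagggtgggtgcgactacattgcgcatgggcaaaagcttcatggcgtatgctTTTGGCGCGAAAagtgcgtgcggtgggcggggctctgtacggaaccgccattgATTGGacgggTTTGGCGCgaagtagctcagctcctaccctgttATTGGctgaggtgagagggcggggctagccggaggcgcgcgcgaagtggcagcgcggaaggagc
Cdk1: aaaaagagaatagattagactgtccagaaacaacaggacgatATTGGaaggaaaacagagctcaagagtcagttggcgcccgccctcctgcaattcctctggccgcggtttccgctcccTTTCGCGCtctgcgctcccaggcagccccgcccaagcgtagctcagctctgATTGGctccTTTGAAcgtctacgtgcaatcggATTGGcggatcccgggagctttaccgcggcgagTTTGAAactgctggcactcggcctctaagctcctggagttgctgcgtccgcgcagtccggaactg
Cdc20: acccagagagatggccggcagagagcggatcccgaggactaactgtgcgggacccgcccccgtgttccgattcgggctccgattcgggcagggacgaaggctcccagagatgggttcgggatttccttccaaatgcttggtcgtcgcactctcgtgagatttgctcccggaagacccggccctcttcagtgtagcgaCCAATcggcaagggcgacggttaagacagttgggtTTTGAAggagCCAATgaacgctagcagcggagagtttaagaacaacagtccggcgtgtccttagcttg
Ccne1: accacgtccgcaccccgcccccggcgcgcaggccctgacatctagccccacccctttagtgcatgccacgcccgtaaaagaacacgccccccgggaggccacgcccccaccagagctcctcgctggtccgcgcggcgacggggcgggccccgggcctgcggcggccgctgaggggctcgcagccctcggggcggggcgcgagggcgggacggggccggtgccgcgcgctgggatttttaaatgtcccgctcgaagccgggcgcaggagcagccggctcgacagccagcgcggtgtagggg
Cdk5r2: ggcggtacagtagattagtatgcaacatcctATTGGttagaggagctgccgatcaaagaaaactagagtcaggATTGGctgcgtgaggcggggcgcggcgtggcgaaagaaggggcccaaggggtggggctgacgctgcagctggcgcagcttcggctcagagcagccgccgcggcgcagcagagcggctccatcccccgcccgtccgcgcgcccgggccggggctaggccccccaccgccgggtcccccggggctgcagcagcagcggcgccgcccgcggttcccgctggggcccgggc

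Counting from 1 at the first transcribed base, the E2F words of Mcm6 begin at -110, -106 and -47, the first 2 of them overlapping on opposite strands, and its CCAAT words at -57 and -14. The CHR of Cdc20 begins at -18 between CCAAT words at -53 and -8. In Cdk1 the CHR words begin at -71 and -15, the E2F word at -131, and CCAAT words at -208, -80 and -48. Of the dividing-cell genes in the promoter table, 23 of 23 with a word and 2 of 3 without one were lowest in library 2. Those without one were Ccne1, highest in library 2, and Birc5 and Tyms, lowest there with ratios of 0.809 and 0.9503. Of the 5 G1 control genes without a word 2, Cdk4 and Ccnd3, were lowest there, as was Cdkn2a, which has a word. Cdk5r2 and Cdkn1b, with roles in postmitotic neurons, held CCAAT words and were lowest in library 1. Since 30 of 31 dividing-cell genes were lowest in library 2, nearly any subset of them would be too. No relation between words and ratios was tested. Members with no promoter in the table were Mcm4, Ccna2, Ccne2, Ccnd1, Ccnd2, Cdk5, Cdk5r1, Gmnn, Aurkb and Rb1.

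The level of a gene depended on which of its rows was read, since rows of a gene share reads. Reads may also be shared between genes. Besides Pcna and Ccnb1, more than 10% of the 50-base words of Mcm7, Cdk4, Ccnd1, Ccnd3, Ccne2, Ccna2, Cdc20, Tyms and Plk1 occur in other annotated genes, so the levels of these 11 genes are uncertain. In 11 of 44 members the highest row was at least 1.5 times the longest coding row, as in Cdk1 (4.66 against 1.69 TPM), Birc5 (3.44 against 1.17), Tyms (1.64 against 0.621) and Cdk4 (50.9 against 23.5). With the highest row 24 of the 31 dividing-cell genes were detected and with the sum of rows 28, against 21 with the longest coding row. Neither choice can lower the level of any gene, and the share of all protein-coding genes detected by them was not worked out. Genes with 1 row, such as Mki67, Mcm4, Rrm1, Ccnd2, Cdk5 and Cdk5r2, had the same value in each case. Library 2 was the lowest in 27 of 31 dividing-cell genes with the highest row and in 27 with the sum. The share of all protein-coding genes lowest there was worked out only for the longest coding row.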

How the data were processed

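RNA-seq libraries of untreated wild-type mouse cortical neurons were analysed (n = 3, 1 group). The authors deposited TPM per transcript, summing to 1000000 in each library over 84660 rows. Trimmomatic, TopHat, Bowtie, HTSeq and build mm10 are named per the submitters' processing notes, without versions or roles, and GENCODE vM4 is in the name of the deposited table. The strand setting and the treatment of reads with several places were not stated in the sources used. Rows were matched without version to GENCODE M21 (83017 matched, 47 of them elsewhere and left out). The gene value is the row of the longest protein-coding transcript, the same row for all 44 members by M21 or by deposited length. Log values are log2(TPM + 1). Reads were recovered because TPM times length, with the outer ends set to the deposited ones, was a whole multiple of 1 number per library, within 0.01, in 98.1% of rows and in all members. Reads served only for depth and intervals, since TPM is unfit for a count test.

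The text names all 44 members and, of each of the 7 other pathway lists, the 3 genes with the highest mean and the lowest one; 8 marker lists served as checks. The fullest row of each gene gave 33.8, 29.9 and 29.4 M reads in libraries 1, 2 and 3. Classes, lists and the 14 pairs were chosen with earlier results of these data known. Calculations used Python 3.11.15, numpy 2.4.6 and scipy 1.17.1 and were tested on simulated data. Alternatives were leaving out each library, the highest row, the sum of rows, scaling to nuclear protein-coding genes, a pseudocount of 0.1, detection limits of 0.5 and 5 TPM, the median of libraries, detected members only, another class for G1 control genes and, added after seeing the data, members with at least 90% of 50-base words in no other annotated gene.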

Additional observations from a re-analysis of the deposited data

How the results depend on the processing

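No paired analysis was possible because there is 1 group. All levels rest on the deposited scaling, in which rows share reads. The median log2(mean TPM + 1) of the dividing-cell, G1 control and postmitotic classes was 1.48, 2.64 and 5.14 with the highest row, 2.52, 3.65 and 5.69 with the sum of rows, and 2.99, 4.31 and 7.21 when scaled to nuclear protein-coding rows, so the order of the classes was kept. That scaling moved the median of all protein-coding genes by 1.92. With a pseudocount of 0.1 it was 0.64 and 2.02 for the dividing-cell and G1 control genes, with detected members only 1.48 and 3.04, with G1 control genes counted as dividing-cell genes 1.39, and with unique sequence 1.41 for G1 control genes. At a limit of 5 TPM 2 of 31 dividing-cell genes, 3 of 8 G1 control genes and 10 of 44 members were detected, against 7332 of 18121 protein-coding genes. At a limit of 0.5 TPM 29 of 31 dividing-cell genes were detected, and when scaled to nuclear protein-coding rows 30 of 31. For these 2 settings no share of all protein-coding genes was worked out. With unique sequence 3 of 5 G1 control genes passed the limit of 1 TPM. The sign turned with the highest row for Cdk5 minus Cdk4 (-0.69), Rrm1 minus Rrm2 (-0.047) and Aurka minus Aurkb (-0.10). With the sum of rows it turned for Cdk5 minus Cdk4 (-3.34), Cdk5r1 minus Cdk5r2 (0.65), Ccnd2 minus Ccnd3 (-1.16), Ccnb1 minus Ccnb2 (1.12), Rrm1 minus Rrm2 (-1.31) and Aurka minus Aurkb (-0.52). Of 240 results for the other lists 56 moved, among them the 13 of 20 replication fork genes detected, which became 20 at a limit of 0.5 TPM or when scaled. The share of all protein-coding genes detected in these settings was not worked out. A sum counts shared reads repeatedly in genes with many rows. The number of dividing-cell genes lowest in library 2 was 30 of 31 without library 1 or without library 3 and after scaling, 27 of 31 with the highest row or the sum, 20 of 21 among detected genes and 22 of 23 with unique sequence. For the G1 control genes it was 2 of 8 with the sum and 1 of 5 with unique sequence, and for the postmitotic class 1 to 2 of 5 when library 1 or 3 was left out. Without library 2 this count has no value. With library 1 or 3 left out, library 2 is set against only 1 other library, so being lowest says less. The share of all protein-coding genes lowest in library 2 was not worked out for left-out libraries, the highest row, the sum or the scaling. Orc1, Cdkn2a and Cdk6 rest on few reads.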
